A study of Mus musculus with 43 samples.

Results

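The mouse olfactory receptor genes of chromosome 2 were examined for repressive histone marks and for the H3K9 methyltransferase Setdb1 in mouse embryonic fibroblasts (MEFs). They were taken as all protein-coding genes of the GENCODE M21 annotation (mm10) on chromosome 2 whose symbols start with Olfr, which gave 294 of the 21951 protein-coding genes of the annotation. They fall into 3 clusters, with gaps of at most 1 Mb between neighbours. Cluster 1 runs from Olfr338 to Olfr368 (chr2:36373519-37332772) and holds 28 genes. Cluster 2 runs from Olfr987 to Olfr1274-ps (chr2:85330779-90403897) and holds 227 genes. Cluster 3 runs from Olfr1275 to Olfr1318 (chr2:111230360-112159157) and holds 39 genes. The symbols of 14 of the 294 genes carry -ps, for pseudogene, although the annotation lists them as protein-coding, and a further 76 Olfr pseudogenes of the chromosome were kept apart.

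All cells were MEFs from E13.5 embryos of 129/C57 dams and CAST sires, given a short hairpin RNA by retrovirus and selected with puromycin. Female cells were Setdb1+/+ Xist-deltaA/+ with the Nonsilencing hairpin, and Setdb1-depleted cells were female Setdb1+/gt Xist-deltaA/+ with a hairpin against Setdb1 (shSetdb1). Male cells were Setdb1+/+ X/Y with the Nonsilencing hairpin. The gt allele is a gene trap, so Setdb1-depleted cells kept an intact copy of Setdb1, and genotype and hairpin differ together between female and Setdb1-depleted cells. The Xist-deltaA allele, which fixes which X is inactive, is shared by female and Setdb1-depleted cells. Each of H3K9me3, H3K9me2, H3K27me3 and Setdb1 was immunoprecipitated from 3 female, 2 Setdb1-depleted and 3 male libraries, but the deposited lists pool them, with 1 list per target and kind of cell. No value below therefore has a replicate error, and no difference between kinds of cells could be tested. The intervals given are exact 95% intervals (Clopper-Pearson for shares of genes, Poisson for numbers of peaks) and cover counting error only. They do not account for peaks shared by neighbouring genes.

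Olfactory receptors are G protein-coupled receptors that bind odorants in the cilia of olfactory sensory neurons. Each neuron expresses a single receptor gene from a single allele. In these neurons the other receptor genes are packed into heterochromatin marked by H3K9me3, and Lhx2, its cofactor Ldb1 and Ebf factors act at enhancers that lie among the clusters. Setdb1 adds methyl groups to lysine 9 of histone H3, often with Trim28 at repeats of retroviral origin. H3K27me3 is laid down by Polycomb complexes and is typical of silent developmental genes.

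The 250 bases before the annotated starts of the genes were compared between receptor genes and other genes, although for many receptor genes the annotated start may not be the one in use. A pair of examples, each written 5′ to 3′ on the strand of the gene, are shown because Olfr1308 lies beside a female Setdb1 peak and Olfr1252 lay within H3K9me3 peaks over 100% of its body in all 3 lists. Capitals mark TAATTA, the core bound by homeodomain proteins of the Lhx2 and Emx2 class (GRCm38.p6, the assembly of mm10, minus strand for both).
Olfr1308 (chr2:111964945-111965194): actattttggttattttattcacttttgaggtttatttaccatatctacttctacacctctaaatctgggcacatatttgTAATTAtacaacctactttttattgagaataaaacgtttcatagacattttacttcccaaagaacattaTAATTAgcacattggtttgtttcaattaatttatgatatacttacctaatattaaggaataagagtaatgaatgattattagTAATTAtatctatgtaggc
Olfr1252 (chr2:89725013-89725262): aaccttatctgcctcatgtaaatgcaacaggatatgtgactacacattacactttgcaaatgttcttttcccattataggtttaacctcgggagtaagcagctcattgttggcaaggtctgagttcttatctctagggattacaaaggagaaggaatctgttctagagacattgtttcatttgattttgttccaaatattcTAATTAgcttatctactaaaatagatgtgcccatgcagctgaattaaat

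The upstream window of Olfr1308 holds 3 matches to TAATTA, beginning 170, 101 and 19 bases before the gene start. That of Olfr1252 holds 1 match, 49 bases before the start. TAATTA, a palindrome that reads the same on both strands, was present in 88 of 294 such windows (29.9%), against 3.74% of 1549 windows of other protein-coding genes of chromosome 2. TATAAA, the TATA box sequence, was present on either strand in 39.8% of receptor windows and in 8.65% of the others. The core of the Ebf or Olf1 site, CCCNNGGG, was present on either strand in 9.86% and 14.7% respectively, a share that depended on which start was used. The median GC content was 33.6% in receptor windows and 55.6% in the others, and 47.3% of receptor windows lacked a CpG, against 3.42% of the others. AT-rich motifs are more frequent in AT-rich windows, and the share owed to base composition was not tested. Among receptor genes, TAATTA was present in 30 of the 112 windows of genes covered by H3K9me3 in any list and in 58 of the 182 windows of the remaining genes. RefSeq places the starts of 194 of the 237 receptor genes with a RefSeq start more than 1000 bp from the annotated start, so the position of many of these promoters is uncertain. In the RefSeq promoters (250 bases before to 50 after the start, 239 promoters) TAATTA was present in 24.7% and TATAAA in 49.8%, against 5.29% and 13.6% of all 32851 promoters. CCCNNGGG was present in 1.67% of them (4 of 239), against 13.7% of all promoters.

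H3K9me3 was the histone mark that lay on the receptor genes. A gene is called covered here when peaks of a list take up at least 50% of its body, and touched when they take up at least 1 base. In female cells 48 of 294 receptor genes (16.3%, interval 12.3 to 21.1) were covered by H3K9me3, against 2.13% of the 1549 other protein-coding genes of chromosome 2. In Setdb1-depleted cells 57 were covered (19.39%, 15.03 to 24.38), against 0.71% of the other genes. In male cells 55 were covered (18.7%, 14.4 to 23.6), against 1.36% of the other genes. The intervals of the receptor genes overlapped between the 3 lists and lay above those of the other genes in each list. The female, Setdb1-depleted and male lists touched 77, 84 and 88 receptor genes (26.2, 28.6 and 29.9%), against 6.84, 3.16 and 5.49% of the other genes.

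The Setdb1-depleted list covered more receptor genes than the female list (ratio of the shares 1.19) but fewer of the other genes of the chromosome (ratio 0.333). Under the 7 alternative ways of counting, the ratio lay between 1.09 and 1.46 for receptor genes and between 0.313 and 0.462 for the other genes. In other sets of genes the covered shares of these lists lay closer together, at 2.845 and 2.528% for all autosomal protein-coding genes, receptor genes included. They were 8.15 and 7.67% for the Olfr genes of other autosomes, and 24.0 and 24.7% for the vomeronasal receptor genes of chromosome 7. By other measures all autosomal genes lay further apart, with 7.73 and 5.12% touched and 2.256 and 1.304% of their bases in peaks. The Setdb1-depleted list is the smaller of the pair, with 67660 kb of autosomal H3K9me3 against 104200 kb in the female list. The H3 pool of Setdb1-depleted cells, which served as control in the study, had an estimated 61.6% of the depth of the female pool. That of male cells had an estimated 71.8%. These depths were inferred from the lowest log2 H3 value of each pool, not from counts of its reads. The depth of the mark libraries is unknown, and the part of depth in these ratios was not tested.

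**Figure D1:**
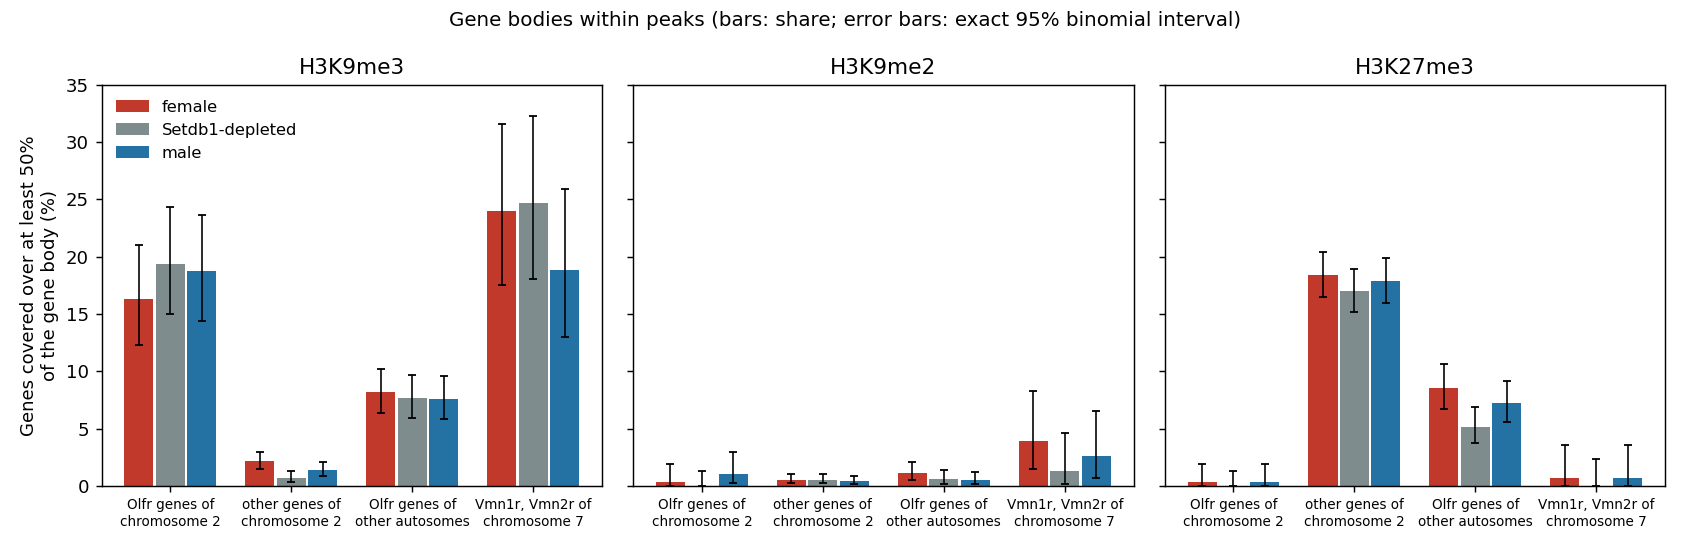
Percent of genes with at least 50% of the gene body within peaks (vertical axis) for the olfactory receptor (Olfr) genes of chromosome 2, the other protein-coding genes of chromosome 2, the Olfr genes of other autosomes and the vomeronasal receptor genes of chromosome 7, in the female (red), Setdb1-depleted (grey) and male (blue) lists. Error bars are exact 95% binomial intervals that cover counting error only. H3K9me3 covered 16.3 to 19.4% of the chromosome 2 receptor genes, and H3K27me3 covered 0 or 1 of them.

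The H3K9me3 share was lower for the Olfr genes of other autosomes, but not for the vomeronasal receptor genes of chromosome 7. Of the 834 Olfr genes on other autosomes, the female list covered 8.15%, the Setdb1-depleted list 7.67% and the male list 7.55%, and the intervals did not reach those of the chromosome 2 genes (highest upper limit 10.2%, lowest limit of the chromosome 2 genes 12.3%). The Vmn1r and Vmn2r genes of chromosome 7, which encode vomeronasal pheromone receptors, were covered at 24.0, 24.7 and 18.8% (154 genes), with intervals that overlapped those of the chromosome 2 receptor genes. Among the 76 Olfr pseudogenes of chromosome 2, 7, 12 and 11 were covered in female, Setdb1-depleted and male cells.

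The 3 clusters differed in how much H3K9me3 they held. In cluster 1, 6, 8 and 9 of 28 genes were covered in the female, Setdb1-depleted and male lists. In cluster 2 the numbers were 29, 37 and 34 of 227 genes. In cluster 3 they were 13, 12 and 12 of 39 genes. Cluster 2 had the lowest covered share in each list (12.78, 16.30 and 14.98%). It held 44.7 receptor genes per Mb, against 29.2 in cluster 1 and 42.0 in cluster 3. In the female list the interval of cluster 3 (19.1 to 50.2%) lay above that of cluster 2 (8.72 to 17.8%), while the intervals of all other pairs of clusters overlapped within each list.

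Measured over all bases of a cluster, between genes as well as within them, H3K9me3 peaks took up 27.3, 31.95 and 26.2% of cluster 1 in the female, Setdb1-depleted and male lists. They took up 19.8, 23.9 and 22.9% of cluster 2, and 40.4, 38.2 and 38.8% of cluster 3. Over the 3 clusters together this was 23.6, 26.9 and 25.45%, while over the rest of chromosome 2 it was 3.80, 2.00 and 2.95%. The Setdb1-depleted to female ratio was 1.17, 1.20 and 0.946 in clusters 1, 2 and 3 and 0.527 over the rest of the chromosome. No whole autosome reached the ratio of any cluster. Chromosome 7 was highest at 0.864, chromosome 18 lowest at 0.392, and the autosomes together gave 0.650. Whole autosomes are much larger than the clusters, and like gene families changed less than they did. Peaks took up 32.4 and 31.4% of gene-body bases of the chromosome 7 vomeronasal receptor genes in the female and Setdb1-depleted lists. For the Olfr genes of other autosomes the values were 8.885 and 7.549%. The male to female ratio was 1.08 over the clusters and 0.776 over the rest of chromosome 2.

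**Figure D2:**
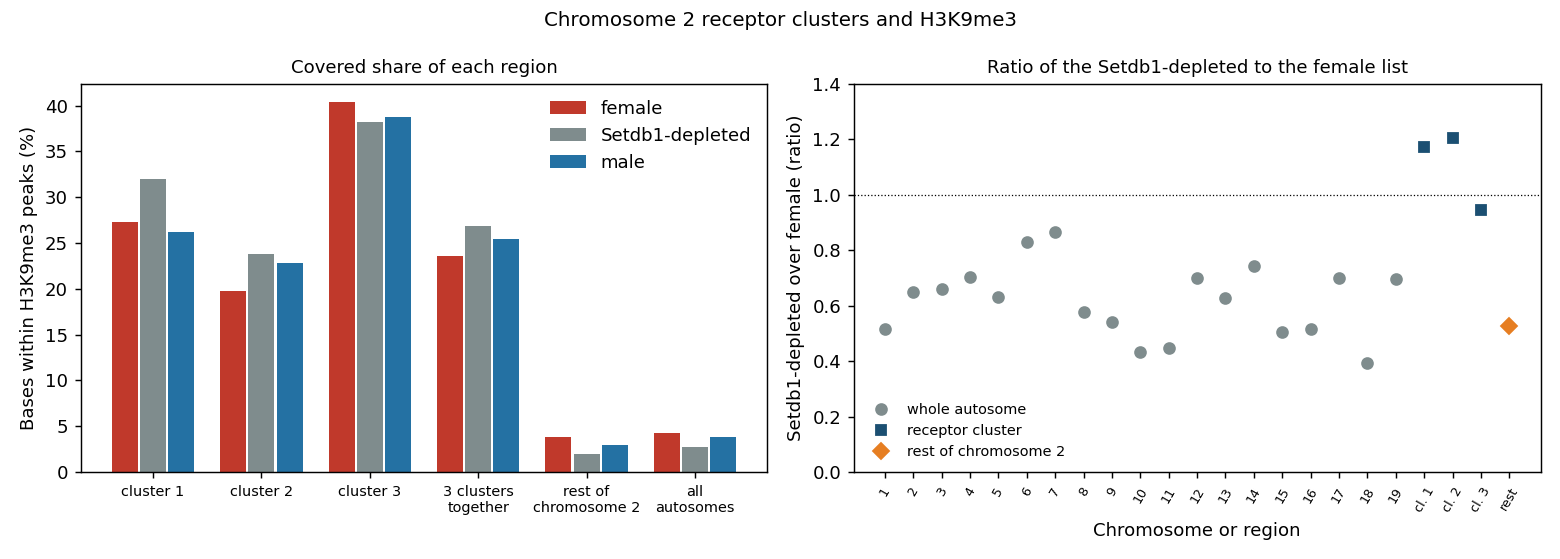
Left, percent of bases within H3K9me3 peaks in each receptor cluster, the 3 clusters together, the rest of chromosome 2 and all autosomes, for the female (red), Setdb1-depleted (grey) and male (blue) lists. Right, covered share of the Setdb1-depleted list over that of the female list for each autosome (circles), each receptor cluster (squares) and the rest of chromosome 2 (diamond). The clusters lie between 0.946 and 1.20, and the autosomes between 0.392 and 0.864.

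Within the clusters the mark lay more between the receptor genes than on them. Peaks took up 17.5, 20.2 and 20.7% of the bases of receptor gene bodies in the female, Setdb1-depleted and male lists, and 25.7, 29.2 and 27.1% of the remaining cluster bases. The female list had 83 peaks in the clusters, the Setdb1-depleted list 85 and the male list 81, with median widths of 15, 20 and 20 kb. Of these peaks 43, 38 and 37 covered no receptor gene, and no peak covered more than 3. Covered genes had median lengths of 5458, 5813 and 5856 bp in the female, Setdb1-depleted and male lists, and the remaining genes 5812, 5723 and 5739 bp, so the difference changed direction between lists.

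**Figure D3:**
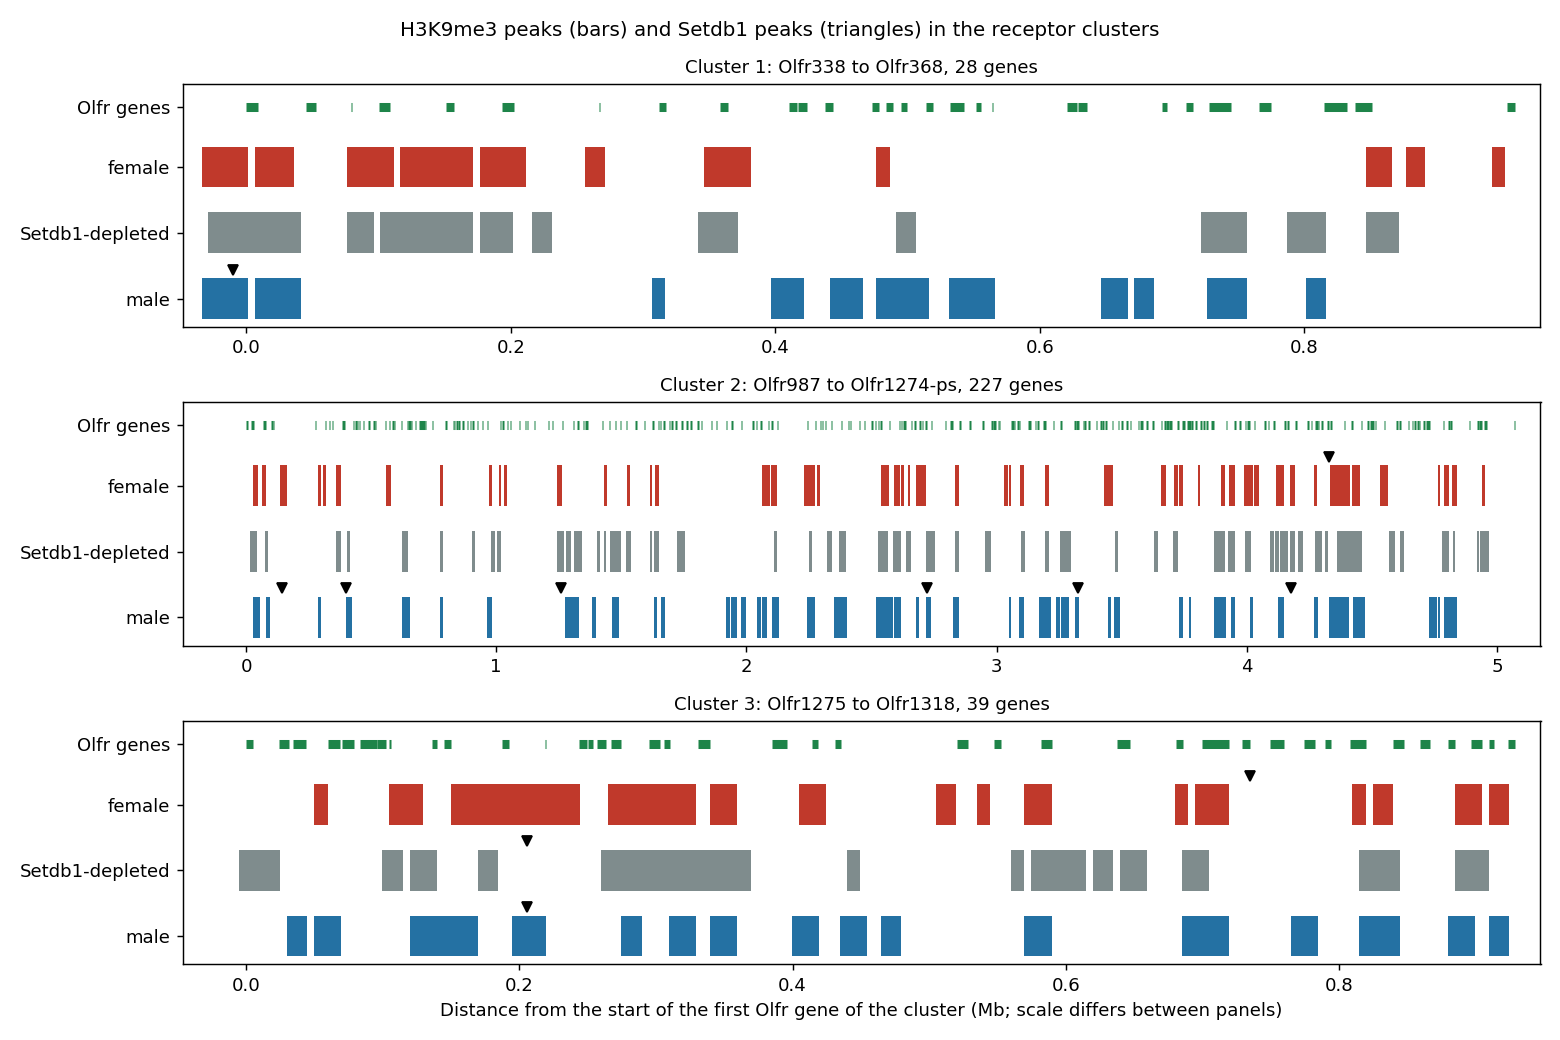
H3K9me3 peaks (bars) of the female (red), Setdb1-depleted (grey) and male (blue) lists along the 3 receptor clusters, with Olfr genes in green and Setdb1 peak summits as triangles above the list in which they were called. The horizontal axis is the distance in Mb from the start of the first Olfr gene, on a different scale in each panel, and peaks that adjoin appear as 1 bar. The first part of cluster 1 carries female and Setdb1-depleted peaks and, after Olfr338, few male peaks.

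The widest H3K9me3 peak of the clusters was a 75 kb female peak in cluster 3 (chr2:111380001-111455000) that covered Olfr1286 and Olfr1287. In Setdb1-depleted cells the widest was a 70 kb peak at the edge of cluster 1 (chr2:36345001-36415000), which covered Olfr338. In male cells a pair of 55 kb peaks in cluster 2 covered Olfr1084 with Olfr1085 and Olfr1136 with Olfr1137. Olfr1252 lay in a wide peak of each list, of 60 kb in female, 55 kb in Setdb1-depleted and 50 kb in male cells. Olfr342 lay in a 55 kb peak with identical borders in the female and Setdb1-depleted lists (chr2:36490001-36545000), and no male peak touched it. The longest runs of covered neighbours had 5 genes. They ran from Olfr340 to Olfr345 in female cells, from Olfr1290 to Olfr1295 in Setdb1-depleted cells and from Olfr1151 to Olfr1155 in male cells.

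Different receptor genes were covered in the different lists. Of the 294 genes, 182 were covered by H3K9me3 in none of the 3 lists, and 178 were covered in none of the 9 histone lists. In any list 112 genes were covered, against 38 of 1549 other genes of the chromosome (2.45%). The 112 genes divided into 72 covered in exactly 1, 32 in exactly 2 and 8 in all 3. Of the 38 other genes, 10 were covered in all 3 lists, and their further division was not counted. By kind of cell, 30 receptor genes were covered in the male list alone, 24 in the Setdb1-depleted list alone and 18 in the female list alone. The commonest pair was female with Setdb1-depleted (15 genes), followed by Setdb1-depleted with male (10) and female with male (7). In cluster 1 no gene was covered in the female and male lists together, against 10 in cluster 2 and 5 in cluster 3.

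**Figure D4:**
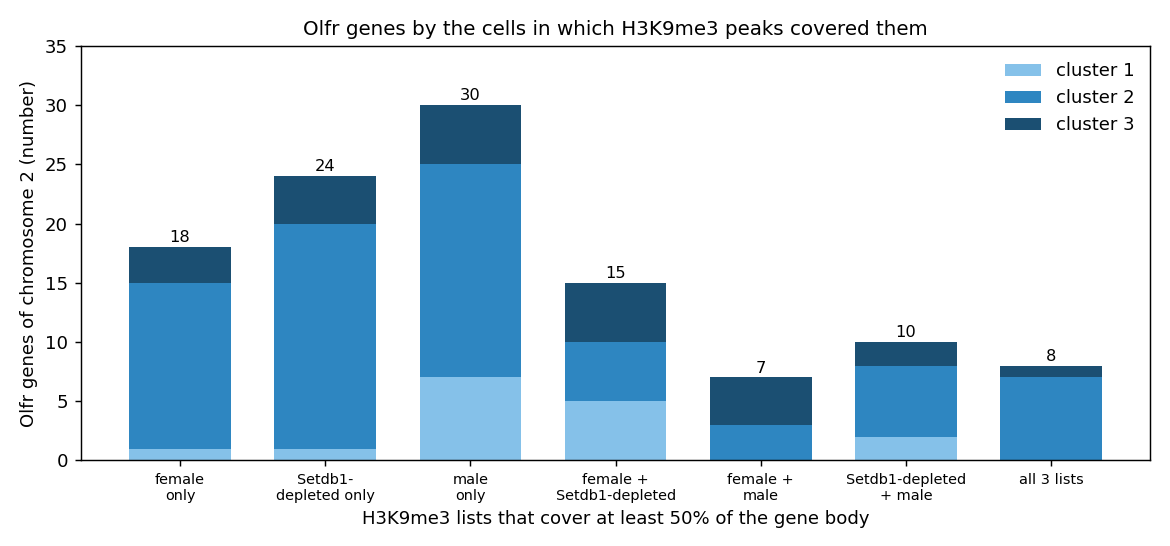
Number of chromosome 2 Olfr genes (vertical axis) by the set of H3K9me3 lists that covered at least 50% of the gene body, with shades of blue for the 3 clusters. Of the 112 genes covered in any list, 72 were covered in exactly 1 list and 8 in all 3. Of the 38 other genes of the chromosome covered in any list, 10 were covered in all 3.

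The 8 genes covered in all 3 lists (0.646% of the other genes of the chromosome were) are Olfr1053, Olfr1152, Olfr1155, Olfr1229, Olfr1247, Olfr1252 and Olfr32 in cluster 2 and Olfr1303 in cluster 3. None lies in cluster 1. Olfr1252 (chr2:89719575-89725012) was covered over 100% of its body in each list. Olfr1155 was covered over 96.1, 100 and 100% in the female, Setdb1-depleted and male lists. Olfr1303 was covered over 95.8, 100 and 95.8%. Olfr1229 was covered to the same extent in each list. The female list gave the lowest or joint lowest value for all 8 genes, between 54.2% for Olfr1152 and 100% for Olfr1252. Olfr1247 had 55.0, 99.5 and 100%, Olfr1053 had 69.9, 100 and 69.9%, and Olfr32 had 61.9, 61.9 and 100%.

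Between the female and Setdb1-depleted lists, the covered receptor genes differed in both directions. Of the 48 genes covered in the female list, 23 were covered in the Setdb1-depleted list too and 18 were not touched by it. Of all 294 receptor genes, 18 thus went from covered to untouched, and of all 1549 other genes of the chromosome 20 did (1.29%). In the opposite direction, 28 of the 57 genes covered in the Setdb1-depleted list were untouched in the female list, and among the 1549 other genes 1 was (0.0646%). Taken over covered genes only, 37.5% of the female and 49.1% of the Setdb1-depleted receptor genes were untouched in the other list. On the same base the shares were 60.6% (20 of 33 genes) and 9.09% (1 of 11) for the other genes of chromosome 2, and 38.85 and 32.7% for all autosomal protein-coding genes. The receptor share of the female list was thus near the autosomal share and below that of the other genes of the chromosome, while the share of the Setdb1-depleted list was above both. For the Olfr genes of other autosomes the shares were 63.2 and 51.6%, and for the vomeronasal receptor genes of chromosome 7 they were 18.9 and 23.7%.

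The first genes by position that were covered in the female list and untouched in the Setdb1-depleted list were Olfr345 (100%), Olfr1002 (84.9%) and Olfr1024 (100%). The last were Olfr1287, Olfr1298 and Olfr1317, each covered over 100% in the female list. The first set of 3 was untouched in the male list as well, whereas the last set was covered there (93.6% for Olfr1287 and 100% for the other two). In the opposite direction, the first were Olfr352, Olfr362 and Olfr993, each at 100% in the Setdb1-depleted and male lists and at 0 in the female list. The last were Olfr1295 (100%), Olfr1305 (75.3%) and Olfr1313 (63.3%). Of these only Olfr1313 was covered in the male list, also at 63.3%. Among the genes at the cluster edges, Olfr1275 was covered over 100% in the Setdb1-depleted list and untouched in the other two. Olfr338 was covered over 43.9, 100 and 43.9% in the female, Setdb1-depleted and male lists. Olfr1318 was covered over 16.2% in female and male cells and untouched after depletion. Olfr368 and Olfr987 were untouched by every histone list, as was Olfr1019, a receptor known for its response to the fox odour TMT.

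The female and male lists had fewer covered receptor genes in common than the female and Setdb1-depleted lists. Of the 48 genes covered in the female list, 25 (52.1%) were untouched in the male list. Of the other genes of the chromosome 15 of the 33 covered were (45.45%, or 0.968% of all 1549), and of all covered autosomal genes 37.0%. Of the 55 covered in the male list, 33 were untouched in the female list. Here 5 of 21 covered other genes were (23.8%, or 0.323% of all 1549), and 36.2% of the covered autosomal genes. Both lists covered 15 genes. In cluster 1 there was no shared gene, against 10 in cluster 2 and 5 in cluster 3. The 6 female genes of cluster 1 were all untouched in the male list, and 8 of the 9 male genes were untouched in the female list. These 6 genes lay in only 2 runs of neighbours and the 9 in 5 runs, so they are not separate cases. Whether fewer genes were shared than such small numbers would give was not tested. Olfr340, Olfr341, Olfr342 and Olfr344 were covered over 100% in the female list, over 85.4 to 100% in the Setdb1-depleted list and over 0% in the male list.

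The covered bases were compared in the same way. In the clusters, the female and Setdb1-depleted lists shared 906.5 kb, which is 55.2% of the female and 48.45% of the Setdb1-depleted total. Female and male lists shared 796.5 kb (48.5% of the female and 45.0% of the male total). Of the 3216 kb covered in any list, 496.5 kb (15.4%) were covered in all 3. Over the rest of chromosome 2, 14.8% of the bases covered in any list were covered in all 3. There, however, 59.95% of the Setdb1-depleted and 31.6% of the female H3K9me3 lay in the part shared by these lists. In cluster 1 the female and male lists shared 15.9% of the female and 16.5% of the male total, and the female and Setdb1-depleted lists shared 71.3 and 60.85%.

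H3K9me2 covered receptor genes at shares near those of the other genes of the chromosome, which lay within the intervals of the receptor genes in each list. The female list covered 1 gene, against 0.516% of the other genes of the chromosome. The Setdb1-depleted list covered 0 of 294 genes, with an upper limit of 1.25%, against 0.516%. The male list covered 3 genes, against 0.387%. The female gene was Olfr1316, covered over 100% by H3K9me2 and by H3K9me3 in the female list. The male genes were Olfr365 (84.2%), Olfr1090 (63.7%) and Olfr1214 (100%), and none of these was covered by H3K9me3 in any list. H3K9me2 peaks took up 0.503, 0.287 and 1.80% of the clusters in the female, Setdb1-depleted and male lists, and 1.11, 1.04 and 1.24% of the rest of the chromosome. The male list had 11 H3K9me2 peaks in the clusters, the female list 3 and the Setdb1-depleted list 2. A male peak at chr2:89220001-89235000 held 4 H3 reads of the male pool in 15 kb, while the other 10 held between 54 and 217, and the part of this in the call was not tested.

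H3K27me3 was almost absent from the clusters. It covered 1 receptor gene in the female list, against 18.4% of the other genes of the chromosome. In the Setdb1-depleted list it covered 0, against 17.0%, and in the male list 1, against 17.9%. The gene was in each case Olfr1274-ps, the last gene of cluster 2, where a 20 kb peak that runs beyond the cluster took up 74.7% of the gene body. H3K27me3 peaks took up 0.415% of the clusters in female and 0.0560% in male cells and none of their bases in Setdb1-depleted cells, against 10.2 to 12.8% of the rest of the chromosome. The vomeronasal receptor genes of chromosome 7 were alike, with 0.649, 0 and 0.649% covered in the female, Setdb1-depleted and male lists. For the Olfr genes of other autosomes the shares were 8.51, 5.16 and 7.19%. Only near Olfr988, at the start of cluster 2, did all 3 marks meet. There the interval chr2:85360001-85370000 lay within H3K9me3 in all 3 lists, within H3K9me2 in the Setdb1-depleted and male lists and within H3K27me3 in the female list.

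Few Setdb1 peaks were called in the clusters. The female list had 2 (0.287 per Mb, 0.0348 to 1.04), against 0.371 per Mb over the rest of chromosome 2. The Setdb1-depleted list had 1 (0.144 per Mb, 0.00364 to 0.800), against 0.103. The male list had 7 (1.01 per Mb, 0.404 to 2.07), against 1.11. In each list the interval of the clusters included the value for the rest of the chromosome, so no excess or lack of Setdb1 peaks was detectable at these numbers. The lists differ in depth, with 18134299, 14405821 and 12320583 reads entering the female, Setdb1-depleted and male calls. The hairpin behind the Setdb1-depleted Setdb1 list is uncertain, since its header names the non-silencing one and the labels name shSetdb1.

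The female peaks lay in an intron of Olfr1250 and 157 bp upstream of Olfr1308. Each had a pileup of 7 reads, a −log10 p of 5.05 and a q-value of 0.713. Neither lay in H3K9me3 of any list, and the summit beside Olfr1308 lies within the upstream sequence shown above. A single place held a Setdb1 peak in more than 1 list. Its summits lie 12888 and 12910 bp upstream of Olfr1287, within the 75 kb female H3K9me3 peak and a male H3K9me3 peak, but in no H3K9me3 peak of the Setdb1-depleted list. The summits were 22 bp apart. In the Setdb1-depleted list the peak had a pileup of 12, a fold enrichment of 6.50 and a q-value of 5.35e-05, and in the male list a pileup of 14, a fold enrichment of 3.75 and a q-value of 0.0207.

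The male list added 6 peaks in cluster 2. The strongest, 10131 bp upstream of Olfr1242, had a pileup of 9, a −log10 p of 8.71 and a q-value of 0.000133. The 51 bases centred on its summit had 14144 exact matches in the genome, overlapping ones included, so the place of its reads is uncertain. The other added peaks had q-values between 0.134 and 1.0. They were nearest to Olfr995, Olfr1009, Olfr1082, Olfr1162 and Olfr1192-ps1, where the summit fell in an exon. All 7 male summits of the clusters lay in H3K9me3 of at least 1 list, but 4 of 7 in that of the male list itself. For comparison, H3K9me3 of any list took up 3216 of the 6961 kb of the clusters, and that of the male list 25.45%. Whether summits and H3K9me3 coincide more than these shares was not tested. A further male peak lay 10045 bp outside cluster 1, next to Olfr338, with a q-value of 1.04e-05, and lay in H3K9me3 of all 3 lists. Of the receptor genes nearest to a peak, Olfr1192-ps1 was covered by H3K9me3 in the male list alone (100%) and Olfr1162 in the female list alone (78.3%). Olfr1082 was covered in the Setdb1-depleted list alone (100%), with 28.6% in the female and 0 in the male list. Olfr995 and Olfr1009 were untouched by all histone lists, as was Olfr1308. Olfr1250 was covered over 0, 16.0 and 19.1% and Olfr1242 over 0, 44.0 and 0% in the female, Setdb1-depleted and male lists.

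The sequence under the peak with the lowest q-value in the clusters, near Olfr1287, is shown because it consists of short repeats. It gives 50 bases on either side of the summit, on the plus strand of GRCm38.p6, with the summit base in capitals.
Olfr1287 (Setdb1-depleted list, chr2:111436204-111436304): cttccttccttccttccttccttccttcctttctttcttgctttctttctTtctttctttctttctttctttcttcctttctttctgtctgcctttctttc

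The 51 bases centred on this summit had 1 exact match in the 21 chromosomes. Soft-masked bases, which mark repeats in the assembly, made up 97.1% of the Setdb1-depleted peak near Olfr1287. They made up 100% of the male peak near Olfr1242, and 15.8 and 2.97% of the female peaks at Olfr1250 and Olfr1308. How reads were placed among repeat copies was not tested.

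Among the male peaks, 3 shared a stretch of 40 bases with no difference, in capitals below with 60 bases on either side. They are the peaks nearest to Olfr338, Olfr995 and Olfr1082. The sequences are given on the strand on which the shared stretch reads alike (plus, minus and plus).
Olfr338 (chr2:36363275-36363434): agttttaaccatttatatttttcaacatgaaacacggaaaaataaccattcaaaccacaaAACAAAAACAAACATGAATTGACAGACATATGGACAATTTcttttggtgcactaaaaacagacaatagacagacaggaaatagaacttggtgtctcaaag
Olfr995 (chr2:85473849-85474008): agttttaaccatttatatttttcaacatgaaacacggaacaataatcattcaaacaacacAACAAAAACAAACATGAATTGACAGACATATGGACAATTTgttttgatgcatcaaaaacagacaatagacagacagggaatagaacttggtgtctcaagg
Olfr1082 (chr2:86587767-86587926): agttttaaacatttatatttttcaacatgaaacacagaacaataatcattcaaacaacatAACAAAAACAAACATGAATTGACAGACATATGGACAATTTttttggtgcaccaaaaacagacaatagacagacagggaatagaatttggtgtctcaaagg

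Over the first 100 bases of these windows the Olfr338 and Olfr995 sites were identical at 96 positions, the Olfr338 and Olfr1082 sites at 94 and the Olfr995 and Olfr1082 sites at 97. These 100 bases include the 40 that were chosen because they are identical. Over all 160 bases, compared without gaps, the same pairs were identical at 93.75, 71.25 and 72.5% of positions. The 40 bases occur 65 times in the 21 chromosomes, and 3 of the copies lie in the clusters. The copy near Olfr338 is not among these 3, since it lies outside cluster 1. Within 200 bases of the summit they were found at 8 of 3194 male Setdb1 peaks (0.250%), 1 of 1237 female peaks (0.0808%) and 0 of 380 peaks of the Setdb1-depleted list. The 8 male peaks include the 3 from which the stretch was taken, so the male share is raised by that choice. The 51 bases at the summit had 24 exact matches in the genome near Olfr995, 2 near Olfr1082 and 1 near Olfr338.

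The clusters are rich in repeats and poor in GC, within H3K9me3 peaks as well as outside them. Soft-masked bases made up 50.2% of the 3 clusters and 31.4% of the rest of chromosome 2, and GC content was 37.45 and 42.3%. Within the clusters, the bases in H3K9me3 peaks were 62.75, 60.3 and 59.7% soft-masked in the female, Setdb1-depleted and male lists. The cluster bases outside the peaks were 46.3, 46.5 and 47.0% soft-masked. Bases in H3K9me3 peaks over the rest of the chromosome had like values (62.1, 60.3 and 62.7%). CpG dinucleotides were at 5.66, 5.43 and 5.39 per kb of cluster bases in peaks, and at 4.61, 4.65 and 4.68 per kb outside them. The median of H3 reads was higher in cluster peaks than in the other H3K9me3 peaks of the chromosome, at 16.5 against 13.9 per kb in female, 10.1 against 8.40 in Setdb1-depleted and 12.2 against 10.35 in male cells, each in its own pool. A few cluster peaks, however, held almost no H3 reads. The female peak at chr2:89230001-89245000 held 11 in 15 kb and the Setdb1-depleted peak at chr2:89215001-89245000 held 7 in 30 kb, at the place of the male H3K9me2 peak with 4 reads, and neither covered a receptor gene.

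The 7 other protein-coding genes that lie among the receptor genes, all in cluster 2, were covered in none of the lists. The H3K9me3 values that were not 0 were 32.2% for 4833423E24Rik in the female list and 17.1, 34.6 and 35.8% for Gm13723, Gm13757 and Gm13762 in the Setdb1-depleted list. Pramel6 and Pramel7, which lie between receptor genes, were untouched.

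Lists of other genes of the olfactory system are too short to set apart from the genome at these shares, since H3K9me3 covered 2.53 to 2.88% and H3K27me3 11.9 to 13.8% of all autosomal protein-coding genes. Of 16 genes of odour transduction, H3K9me3 covered 0 in any list and H3K27me3 covered 4, 3 and 3 in the female, Setdb1-depleted and male lists. The H3K27me3 shares of all autosomal protein-coding genes were 13.8, 11.9 and 12.85%. Cnga2, counted in the female and Setdb1-depleted lists, lies on the X chromosome, to which autosomal shares do not apply. Gng13, a G protein gamma subunit, was covered over 100% by H3K27me3 in all 3 lists. Gnal, which encodes the G protein alpha subunit that couples receptors to adenylyl cyclase, was at 84.3, 41.0 and 55.4%. Cnga2, the X-linked cyclic nucleotide-gated channel subunit, was at 100, 100 and 0%. It was also the 1 gene of the list covered by H3K9me2, over 54.4% in the Setdb1-depleted list. Cngb1, a partner subunit, was at 61.6, 0 and 0%, and Rtp2, which helps receptors to reach the membrane, at 0, 65.0 and 100%. Adcy3, the adenylyl cyclase of the pathway, and Omp, the marker of mature olfactory neurons, were untouched. Of 12 regulators of receptor genes, H3K27me3 covered 3, 2 and 3 (against 13.8, 11.9 and 12.85% of all autosomal genes), and H3K9me3 covered 0. Lhx2 and Emx2 were covered over 100% in all 3 lists, and Ebf4, on chromosome 2, over 60.4, 40.5 and 60.4%. None of 10 genes of H3K9 methylation, Setdb1 included, was covered by any mark.

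None of 16 fibroblast marker genes, among them Col1a1, Vim and Pdgfra, was touched by any of the 9 histone lists. Among all autosomal protein-coding genes, H3K9me3 touched 5.12 to 7.73%, H3K9me2 1.87 to 2.74% and H3K27me3 22.8 to 25.5%. Of 9 markers of olfactory sensory neurons, 7 are also in the odour transduction list. H3K27me3 covered 2, 1 and 1 of the 9, against 11.9 to 13.8% of all autosomal genes. The covered genes were Cnga2, which is X-linked, and Gnal, described above. Peak lists hold no expression values, so whether any receptor gene was transcribed could not be read from them.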

How the data were processed

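ChIP-seq was run on 43 libraries of MEFs, of which 32 were for the 4 targets, 8 for total H3 and 3 for whole cell extract (WCE). The authors aligned reads with Bowtie2 to mm10 with strain differences masked and pooled the libraries of each group before peaks were called. Histone peaks were called by the authors in Seqmonk with its MACS-style caller (fragments of 10 kb, p under 1e-05, H3 control), in steps of 5 kb and with no score. The deposited log2 values in these lists are H3 reads of each pool per peak, scaled by the authors to the deepest pool. The scaling was undone here with depths inferred from the lowest value of each pool. Setdb1 peaks were called by the authors with MACS2 2.1.0.20140616 against WCE, with down-sampling and p under 0.001. The deposited pileup is a read coverage signal, the deposited fold enrichment is a ratio against the local background, and per the file headers the significance columns are −log10 p-values and −log10 q-values. The lists hold 0 columns of single libraries. The labels' extraction protocol names NSCs where all other labels name MEFs.

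Here each gene body (GENCODE M21) was intersected with the merged peaks of each list, in Python 3.11.15 with numpy 2.4.6, pandas 2.3.3 and scipy 1.17.1, and a gene with at least 50% of its bases in peaks was called covered. The overlap code was checked on simulated intervals. The receptor genes, gene lists and motifs were chosen with earlier results of these data known. Genes named in the text are those covered in all 3 lists, the first and last 3 by position that were covered in the female list and untouched in the Setdb1-depleted list or the reverse, those nearest to a Setdb1 peak of a cluster, those at cluster edges, those with H3K27me3 and Olfr1019. Genes in the widest peaks and longest runs, those with H3K9me2, the genes of cluster 1 shared by female and Setdb1-depleted cells and Olfr988 were named after their values were seen, and so was the shared 40-base stretch. Sequences came from GRCm38.p6, and promoters from RefSeq for 237 of the 294 genes. Amino acid sequences were not used here. The sequence under 1 Setdb1 peak is not reported here.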

Additional observations from a re-analysis of the deposited data

How the results depend on the processing

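No paired analysis was possible because each list pools the libraries of its group, and for the same reason no replicate could be left out. Counting a gene with any base in peaks, H3K9me3 was found on 26.19, 28.57 and 29.93% of receptor genes in the female, Setdb1-depleted and male lists, and on 6.84, 3.16 and 5.49% of the other genes of the chromosome. The female share for H3K9me2, which rests on 1 gene, was 0.0% with peaks at least 15 kb wide, with equal numbers of the widest peaks and with the genes of cluster 2 only. For Setdb1, peaks with a q-value under 0.05 numbered 0 in the female and 2 in the male list, and peaks with −log10 p of at least 5 numbered 4 in the male list. With cluster 2 only there were 1 female peak and 0 in the Setdb1-depleted list. The other 64 recomputed values moved by less than their interval or, for numbers of peaks, by no more than 1.5 times. A 5 kb flank, joined gaps of at most 10 kb and the addition of pseudogenes were among them. Of the 10 Setdb1 peaks in the clusters, 8 have pileups of 4 to 9 reads. The male call had the fewest reads entering and the most peaks.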
